A study of Mus musculus with 16 samples.

Results

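Heart RNA from 2-week-old mice that lack Dsg2 in the heart was compared with heart RNA from wild-type mice of the same age. The comparison holds 8 of the 16 libraries of the study, chosen by their labelled age: 4 labelled Dsg2-/- and 4 labelled Wild-type. The other 8 libraries are of 10-week-old mice and enter no value given here. Both groups are of strain C57BL/6, were untreated as far as the labels say, and differ in the labelled genotype only. The series title calls the deletion cardiac-specific. The labels used here name neither the Cre line nor its promoter, so the cells that lost Dsg2 are not specified beyond the organ. The labelled tissue is heart, kept in RNALater and extracted with a kit for fibrous tissue. In each genotype replicates 1 and 2 carry the letter code OA and the label male, and replicates 3 and 4 carry OB and female, so code and sex cannot be told apart. The labels do not say that each library is from a separate animal, and p-values measure the spread between these libraries. The question is which pathways and which cell types differ in level across the transcriptome of the young Dsg2-null heart.

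The product of Dsg2 is desmoglein-2, a transmembrane adhesion protein. It belongs to desmosomes, which sit in the intercalated disc, where they tie the intermediate filaments of neighbouring heart muscle cells together so that the cells withstand each contraction. Inherited loss of desmosomal proteins causes arrhythmogenic cardiomyopathy, in which muscle is lost, inflamed and replaced by fibrous and fatty tissue. The young mouse heart is at that age finishing a switch: its muscle cells leave the cell cycle, take up fatty acid oxidation in place of glycolysis, and exchange fetal for adult sarcomere proteins. It also holds resident macrophages seeded before birth, which differ from the monocytes that enter an injured heart from the blood.

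Values are scaled FPKM, that is, the deposited fragments per kilobase of transcript, relative to library size, divided by a size factor for each library. A difference is that of the means of log2(scaled FPKM + 1), Dsg2-null minus wild type. A gene is said to rise or fall where the limma p, adjusted over all 13384 genes tested, is below 0.05. Of these genes 1427 rose (10.7%) and 1031 fell (7.7%), and their median difference was -0.01. The split depends on the scaling. With the deposited values unscaled 2351 rose and 477 fell, with equal library sums 2268 rose and 452 fell, and with quantile normalisation 1238 of 2526 called genes rose. The rises were the larger changes: 440 called genes had a difference above 1 and 12 had one below -1. Leaving out 1 library at a time gave 1418 to 2691 called genes, so counts of list members are followed by their range over these 8 fits where a library lowers them by more than 1.5 times, with the replicates that do so. Values of the genotypes did not overlap in 1761 genes that were higher (13.2%) and 1511 that were lower (11.3%) in Dsg2-null hearts.

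The targeted gene followed its labels. Dsg2 measured 17.3, 21.6, 23.6 and 23.2 in wild-type replicates 1 to 4 and 4.66, 3.54, 4.11 and 3.57 in Dsg2-null replicates 1 to 4. The Dsg2-null libraries were thus all below the wild-type ones, at 18.5% of their mean (difference -2.17, SE 0.12, limma adjusted p = 1.96e-05; exact permutation p = 0.0286, two-sided, the smallest that 4 against 4 can give). Heart muscle genes such as Myh6, the main myosin heavy chain of the adult mouse heart, were among the most abundant in every library, and the skeletal muscle genes Myh1, Myh4 and Myod1 were listed at 0 in all 8. Library facts differed between genotypes. Size factors were 0.926 to 0.989 in wild-type and 1.02 to 1.07 in Dsg2-null libraries (exact permutation p = 0.0286). In the same order, mitochondrially encoded genes took 11.8% to 14% and 9.60% to 11.3% of the FPKM sum (exact permutation p = 0.0286). This mitochondrial share leaves out the genes of ribosomal and transfer RNA. The row of the predicted gene Gm23935 took 2.11% to 5.22% and 5.10% to 12% (exact permutation p = 0.0857), with the highest share in Dsg2-null replicate 4. Estimated depth was lowest in Dsg2-null replicate 1, at 14.8 fragments for 1 FPKM in a transcript of 1 kilobase, against 25.8 to 33.4 in the other 7 libraries, so values well below 1 rest on few fragments. Correlations of log2 values within a genotype were 0.980 to 0.988 for wild type and 0.959 to 0.981 for Dsg2-null libraries, and no library was left out.

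**Figure D1:**
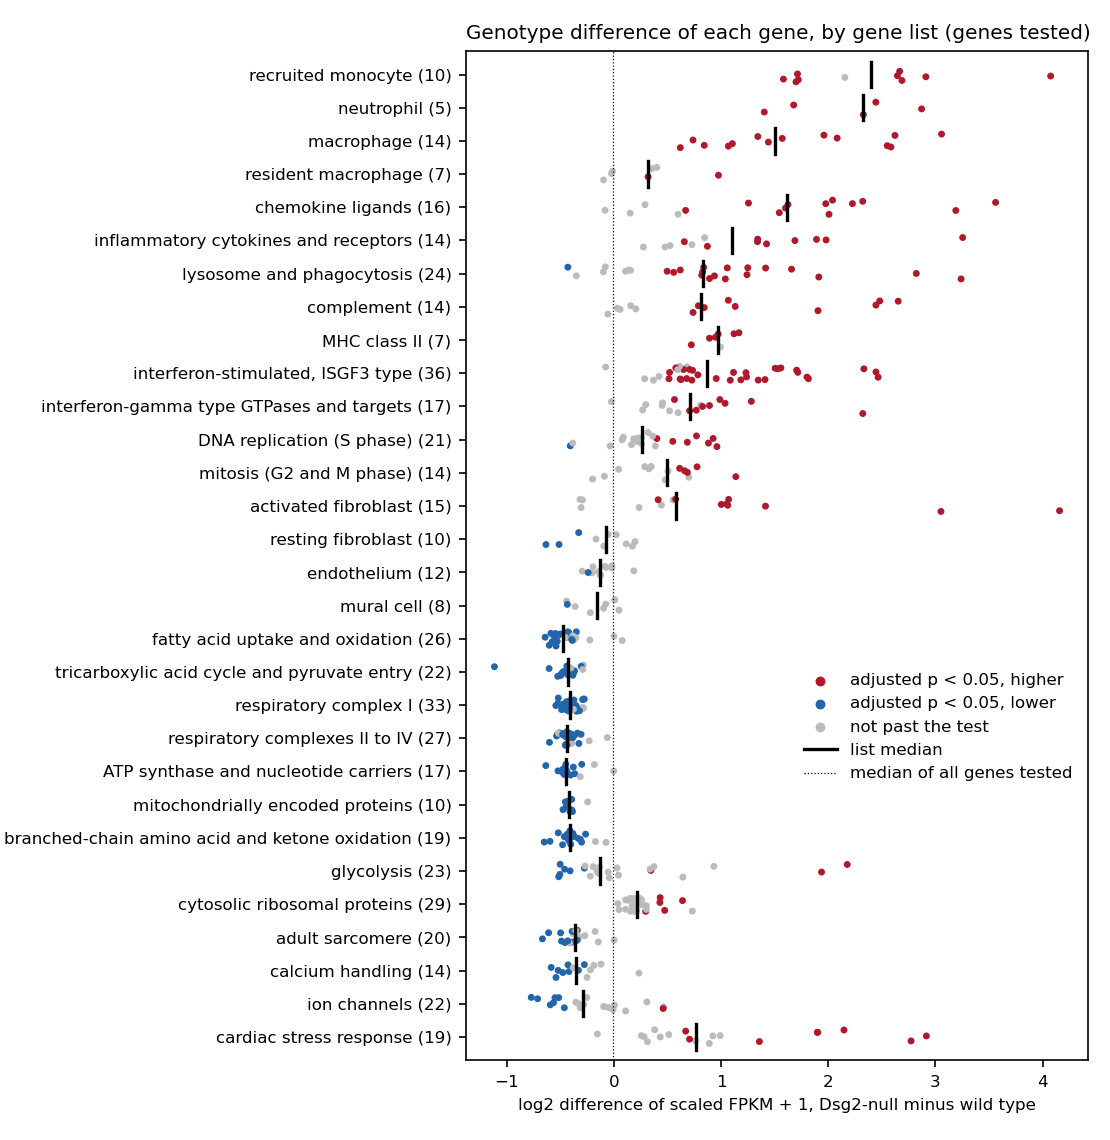
Each point is a tested gene of the list named at the left (number of tested genes in parentheses), placed by its log2 difference of scaled FPKM + 1, Dsg2-null minus wild type; red points rose, blue points fell, grey points did not pass the test, and black bars are list medians. Myeloid and interferon lists lie to the right of the dotted median of all genes, and the lists of oxidative metabolism form narrow bands to its left, at medians of -0.41 to -0.48.

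Macrophage genes were higher in every Dsg2-null heart. All 14 markers fixed for macrophages rose, with a median difference of 1.51, and none of them overlapped between the genotypes. Cd68, a lysosomal glycoprotein of macrophages, measured 3.01, 4.56, 4.14 and 5.35 in wild-type and 40.9, 42.4, 27.7 and 65.7 in Dsg2-null replicates 1 to 4. Its mean went from 4.27 ± 0.977 to 44.2 ± 15.8 (SD, n = 4 each), a 10.4-fold ratio (difference 3.06, SE 0.23, limma adjusted p = 0.00021). Fcgr1, the high-affinity receptor for immunoglobulin G, had values of 0.907, 1.22, 1.03 and 1.79 against 14.6, 12.8, 6.02 and 21.8. Lyz2, the lysozyme of myeloid cells, stood at 30.9, 36.7, 27.7 and 41.7 against 184, 258, 155 and 254. In all 3 genes Dsg2-null replicate 3 was the lowest of its group, and the wild-type values lay far below it. Smaller differences were seen in Csf1r, the receptor for the survival factor CSF1 (1.11), and in the complement component C1qa (0.74), which most macrophages express. In bulk tissue, more cells of a type and more RNA per cell cannot be told apart, and this holds for each cell type described here. Summed over the list, the macrophage markers measured 168 to 217 in wild-type and 524 to 797 in Dsg2-null libraries, a 3.52-fold ratio of means.

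Lists for different kinds of macrophages gave different counts. Of 10 markers of monocytes recruited from blood 9 rose, with a median difference of 2.40. Their summed level was 12.7 to 19.3 in wild-type and 62.3 to 207 in Dsg2-null libraries. Ccr2, the chemokine receptor by which monocytes leave the bone marrow and enter tissue, measured 0.282, 0.202, 0.238 and 0.656 in wild-type and 8.58, 8.57, 3.97 and 9.63 in Dsg2-null replicates 1 to 4 (difference 2.65, SE 0.23, limma adjusted p = 0.000353). Plac8, a marker of classical monocytes, measured 0.317, 0.411, 0.14 and 1.1 against 33.2, 27.4, 7.16 and 44.1. For both genes the lowest Dsg2-null value, in replicate 3, was above the highest wild-type value, in replicate 4. The recruited-monocyte list holds 1 gene that did not pass, Hp (haptoglobin), at 3.06, 0.605, 0.407 and 1.23 against 22.2, 8.09, 1.04 and 17.8, where the groups overlap.

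Resident macrophage markers moved little. Of 7 tested, 2 rose (1 to 3 with 1 library left out, low without wild-type replicates 1, 3 and 4 and Dsg2-null replicates 1, 2 and 3) and 0 fell, with a median of 0.32, and the summed levels of 85.7 to 114 and 108 to 119.7 overlap. Lyve1, a hyaluronan receptor of resident cardiac macrophages, measured 8.02, 9.48, 3.95 and 6.61 against 6.4, 7.38, 6.86 and 6.05 (difference -0.01, limma adjusted p = 0.974), and the groups overlap throughout. Timd4, a receptor for dying cells that marks self-renewing resident macrophages, measured 0.396 to 0.867 over the 8 libraries. The 2 that rose were F13a1 (coagulation factor XIII, difference 0.98) and Mrc1 (the mannose receptor, difference 0.32), and F13a1 is also made by monocytes.

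Genes of macrophages that take up lipid and debris rose in 9 of 11 tested, with a median of 1.04. Spp1, which encodes the secreted matrix protein osteopontin, measured 0.1, 0.22, 0.19 and 0.051 in wild-type and 191, 94.3, 121 and 366 in Dsg2-null replicates 1 to 4. It had the largest difference of any gene in the fixed lists (7.22, SE 0.34, limma adjusted p = 1.62e-05), and the lowest Dsg2-null value was in replicate 2, not in replicate 3. Gpnmb, a glycoprotein of lipid-laden macrophages, measured 0.378, 0.588, 0.375 and 0.843 against 22.3, 32.7, 23.4 and 47. Trem2, a lipid-sensing receptor, measured 0.53, 0.912, 0.749 and 0.481 against 6.22, 9.36, 6.73 and 9.23. In all 3 genes the Dsg2-null libraries stand far above the wild-type ones. Lgals3 (galectin-3) had a difference of 3.13, whereas Ctsl, a cathepsin found in many cell types, measured 37 to 49.7 and 46.9 to 50.8 and did not pass (difference 0.12, limma adjusted p = 0.417).

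Lysosomal and phagocytosis genes were higher too: 17 of 24 rose and 1 fell (0 to 1 with 1 library left out, low without wild-type replicate 3 and Dsg2-null replicate 2), with a median of 0.83. Ctss, the cathepsin that processes antigen in phagocytes, measured 9.88, 8.83, 8.57 and 11.3 against 86.9, 118, 73.4 and 127 and its groups lie far apart (difference 3.24, SE 0.17, limma adjusted p = 1.9e-05). Lgmn (legumain), Hexa, Gusb and Lipa, enzymes of the lysosome's interior, rose by 1.42, 0.84, 0.89 and 0.83. The membrane proteins Lamp1 and Lamp2, which line lysosomes of all cells, had differences of 0.14 and 0.16 with limma adjusted p = 0.371 and 0.164. The gene that fell was Cd36, a fatty acid carrier that heart muscle and endothelium also express, at 359.6, 386, 367 and 329 against 238, 251, 316 and 268. In complement 9 of 14 rose and 0 fell (median 0.82), among them the receptor C3ar1 (2.48), the integrin chain Itgb2 (2.65), Cfb (2.44) and the central component C3 (1.90). Serping1, a soluble inhibitor of complement, had a difference of 0.20 and did not pass the test.

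**Figure D2:**
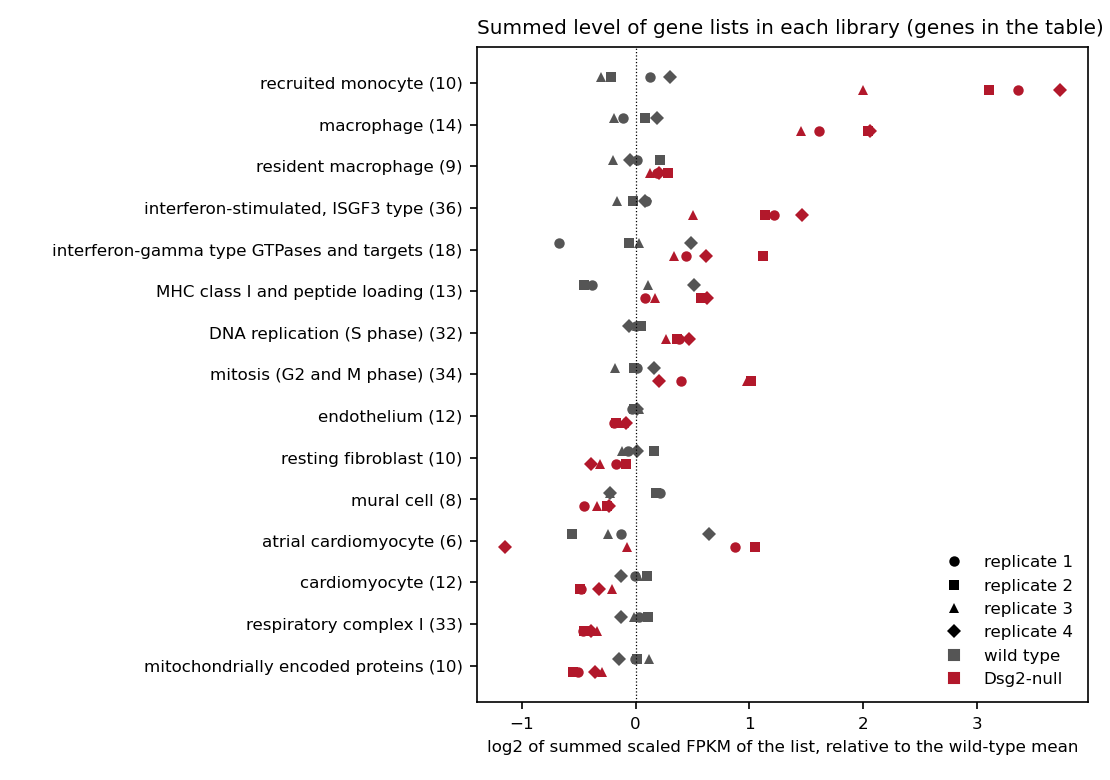
Summed scaled FPKM of 15 gene lists in each of the 8 libraries, shown as log2 relative to the wild-type mean; grey marks are wild-type and red marks Dsg2-null libraries, with one shape for each replicate. The recruited-monocyte sums of the Dsg2-null libraries, 62.3 to 207, lie above all 4 wild-type sums of 12.7 to 19.3, the resident macrophage sums overlap, and the atrial sums scatter within both genotypes.

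Neutrophil and lymphocyte markers were at low levels. Of 13 neutrophil markers, 5 reached a mean of 1 and all 5 of these rose (2 to 5 with 1 library left out, low without wild-type replicates 1, 3 and 4 and Dsg2-null replicates 1, 2 and 4) (median 2.33), but the sums of 1.03 to 8.86 and 8.85 to 67.8 overlap through wild-type replicate 2. S100a8, a subunit of calprotectin that neutrophils and inflammatory monocytes make, measured 0, 2.49, 0.209 and 0.184 against 10.6, 8.65, 1.12 and 17.4. Csf3r, the receptor for granulocyte colony-stimulating factor, measured 0.462, 0.557, 0.254 and 0.673 against 13.5, 11, 3.79 and 15.4, without overlap. Ly6g and Elane, which define mature neutrophils and their precursors, were listed at 0 in all 8 libraries, and Mpo was above 0 in wild-type replicate 2 alone. Cd3e, a chain of the T cell receptor complex, measured 0.106, 0.00642, 0.218 and 0.664 against 0.791, 1.56, 1.09 and 0.349. The 10 T cell genes in the table summed to 1.57 to 4.47 and 4.83 to 13.8, with the highest value in Dsg2-null replicate 2, and Lck, the kinase of the T cell receptor, was their only member to reach a mean of 1 and did not pass (difference 0.93, limma adjusted p = 0.0701). Of 8 natural killer cell genes the 2 that were tested rose: Gzma, a granzyme, at 0, 0.0647, 0.172 and 0.308 against 1.83, 3.66, 1.56 and 3.42, and Nkg7, a granule protein, at 0.151, 0.0729, 0 and 0.931 against 1.6, 4.15, 1.93 and 2.72. B cell sums were 1.49 to 2.78 and 2.87 to 4.13, and none of the 8 genes reached a mean of 1.

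Genes of chemokines, cytokines and innate sensing were higher as well. Of 16 chemokines tested, 12 rose (8 without Dsg2-null replicate 2) and 0 fell (median 1.61). Ccl2, the main ligand of CCR2, measured 1.4, 0.734, 0.743 and 1.17 in wild-type and 30.9, 27.9, 4.26 and 62.2 in Dsg2-null replicates 1 to 4 (difference 3.56, SE 0.61, limma adjusted p = 0.00496). Dsg2-null replicate 3 was far below the other 3 of its genotype and still above the highest wild-type library. Ccl7, another CCR2 ligand, measured 0.21, 0.242, 0.534 and 1.3 against 22.9, 12, 3.01 and 28.7, with the same low library. Cxcl12, which heart stroma makes constitutively, measured 36.8 to 40.8 and 31.4 to 45.8 (difference -0.08). The receptors Ccr1 and Cxcr4 rose with Ccr2 and Cx3cr1. Ackr3, a scavenging receptor for CXCL12 that is not a leukocyte gene, had a difference of -0.32 (limma adjusted p = 0.0412). Its call was lost in 7 of the 8 fits with 1 library left out (limma adjusted p of 0.0344 to 0.104, below 0.05 only without Dsg2-null replicate 4), and with the deposited values, equal sums, the code as covariate, no filter or no trend. Among cytokines and their receptors 9 of 14 rose (5 to 12 with 1 library left out, low without wild-type replicates 1 and 2 and Dsg2-null replicate 2), led by Il1rn, the antagonist of the interleukin-1 receptor, at 0.0817, 0.0528, 0.014 and 0.26 against 12.7, 12.9, 2.43 and 17.5. The cytokine Il1b measured 0.0988, 0.381, 0.538 and 0.612 against 3.11, 5.42, 1.03 and 12.2 (difference 1.89, limma adjusted p = 0.0224). With 1 library left out that p was 0.00224 to 0.0641, and above 0.05 without wild-type replicates 1, 2 or 3 or Dsg2-null replicate 2. Il6, Tnf and Il10 had means below 1 and were not tested. Of the 19 tested genes of innate sensing 16 rose and 0 fell (median 0.84), with the fungal receptor Clec7a (2.72) and the receptors Tlr13 (2.08), Tlr9 (2.04) and Tlr2 (1.91) at the top; Tlr4 and the inhibitor Nfkbia did not pass (0.15 and 0.18).

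Over the 135 tested genes of the immune lists, 105 rose and 2 fell, with a median difference of 1.17. Among the 105, Dsg2-null replicate 3 was the lowest of its genotype in 85 and replicate 4 the highest in 73. Replicate 4 also had the fewest rows above 0, 21050 against 22508 to 23344 in the other Dsg2-null libraries, and the highest Gm23935 share, 12% against 5.10% to 5.43%, and the part of these in the order was not tested. Over all 1427 genes that rose, the same libraries were lowest in 70.5% and highest in 66.4%.

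No tested marker of endothelial cells, resting fibroblasts or mural cells passed the test as higher, while those of activated fibroblasts rose in 9 of 15 (5 to 9 with 1 library left out, low without Dsg2-null replicate 2). Endothelial markers had a median of -0.13: 0 of 12 rose and 1 fell (0 to 1 with 1 library left out, low without wild-type replicates 1, 2, 3 and 4 and Dsg2-null replicates 2 and 4), and their sums were 473 to 492 and 424 to 456, without overlap. The one that fell, Tie1, an endothelial receptor kinase, measured 36.3, 36.6, 39.6 and 37.8 against 33.7, 29.8, 31.4 and 31.9. Pecam1, the adhesion molecule of endothelial junctions, measured 57.8, 59.1, 54.9 and 59.2 against 51.1, 60.7, 55 and 61.7 with full overlap. Under the 3 other scalings no endothelial marker fell and the list median lay between -0.11 and 0.00. Markers of resting fibroblasts had a median of -0.07; of 10, 3 fell (1 to 2 with 1 library left out, low without wild-type replicates 1, 3 and 4 and Dsg2-null replicate 4) (Scara5 -0.63, Abca8a -0.51 and Gsn -0.33), and the lineage markers Pdgfra and Tcf21 measured 16.3 to 17.7 and 15.8 to 20.6, and 6.96 to 9.63 and 5.56 to 9.83. Gsn lost its call in 7 of the 8 fits with 1 library left out. The same held with the deposited values, equal sums, quantile normalisation, no filter or no trend. Among 8 markers of pericytes and smooth muscle, 1 fell (Rgs5, a pericyte gene, -0.43). In lymphatic endothelium 1 of 6 rose (0 to 1 with 1 library left out, low without wild-type replicates 1, 2 and 3 and Dsg2-null replicates 1 and 2) (Pdpn, podoplanin, 1.17), and in Schwann cells 1 of 3 (0 to 1 with 1 library left out, low without wild-type replicates 1, 2 and 3 and Dsg2-null replicates 1 and 2) (Mbp, myelin basic protein, 0.75). Contractile smooth muscle genes were highest in part of the wild-type libraries. Myh11, the smooth muscle myosin, measured 41.2, 29.5, 12.3 and 12.6 in wild-type and 12.7, 20.5, 12 and 17 in Dsg2-null replicates 1 to 4, so that the 2 wild-type OA libraries are the highest of the 8. No gene of the epicardium, conduction system or erythroid lists passed the test, and of the adipocyte list 1 did, Cebpa (1.6), a transcription factor that myeloid cells also use. The adipocyte genes Plin1, Adipoq and Lep did not pass or were not tested, at 0 to 4.53, 0.0294 to 2.69 and 0 to 0.285 over the 8 libraries.

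Antigen presentation genes were higher, from wild-type levels that vary between libraries. Whether the wild-type levels differ by letter code was not tested. MHC class II genes present extracellular peptides to helper T cells. Of 7 tested 6 rose (1 to 7 with 1 library left out, low without wild-type replicates 1, 2 and 3 and Dsg2-null replicates 2 and 3) (median 0.97), and 2 of the 7 had no overlap. H2-Ab1 measured 15.6, 12.9, 19 and 34.8 against 32, 53.2, 45 and 43.8, and Cd74, the invariant chain, 43.5, 28.6, 45 and 75.1 against 58.8, 96.2, 112 and 103. In both genes wild-type replicate 4 reaches into the Dsg2-null range, and the 2 OB wild-type libraries are above the 2 OA ones. Class I genes and the peptide loading machinery rose in 7 of 13 (3 to 8 with 1 library left out, low without wild-type replicates 1, 2 and 3 and Dsg2-null replicates 1 and 2) (median 0.47), and their sums were 526, 502, 742 and 980.2 in wild-type and 728, 1022, 776 and 1060.1 in Dsg2-null replicates 1 to 4, with the wild-type OB libraries above the OA ones. The heavy chain H2-K1 did not pass, at 103, 88.3, 187 and 244 against 136, 142, 148 and 205, and Psmb8, an immunoproteasome subunit, rose, at 6.58, 7.78, 6.65 and 11.1 against 16.5, 19.7, 13.1 and 23.4. The H2 genes form a family of close relatives whose fragments may have been shared between rows.

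Interferon-stimulated genes were higher in Dsg2-null hearts. Interferons bind receptors on almost every cell, and type I interferon activates the complex ISGF3, which binds the interferon-stimulated response element (ISRE) near gene starts. Of 36 tested genes of this kind, 29 rose and 0 fell, with a median of 0.87, and 29 of the 36 had no overlap. Promoters of 4 that rose are shown because members of the list rose together and because they hold the element. The stretches lie before the gene start in RefSeq windows of GRCm38.p6, are written 5′ to 3′ on the gene's strand, and carry in capitals each whole match to the ISRE core (GAAA, 2 free bases, GAAA, or its reverse complement). Oas3 and Oas1a encode synthetases that sense double-stranded RNA, Isg15 a ubiquitin-like protein, and Ifit3 a protein that binds viral RNA. Oas3 is shown from chr5:120777695-120777764 on the minus strand, 36 to 105 bases before its start. Isg15 is shown from chr4:156200851-156200920 on the minus strand, 33 to 102 bases before its start. Oas1a is shown from chr5:120907526-120907595 on the minus strand, 1 to 70 bases before its start. Ifit3 is shown from chr19:34583357-34583432 on the plus strand, 97 to 172 bases before its start.
Oas3: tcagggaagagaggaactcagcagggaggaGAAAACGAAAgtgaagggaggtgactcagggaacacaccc
Isg15: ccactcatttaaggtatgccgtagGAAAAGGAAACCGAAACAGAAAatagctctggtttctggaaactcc
Oas1a: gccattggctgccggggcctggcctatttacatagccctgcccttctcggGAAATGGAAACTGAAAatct
Ifit3: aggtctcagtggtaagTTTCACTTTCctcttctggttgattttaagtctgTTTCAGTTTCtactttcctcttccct

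The core was found in 13 of the 28 listed genes that have a promoter window (46.4%), against 3.99% of all 27025 genes with one and 3.67% of the tested ones. Windows run from 250 bases before to 50 after the gene start and both strands were searched. Of the 21 genes with a window that rose, 12 hold it. The macrophage list, whose median difference was 1.51, holds it in 1 of 9 genes with a window and the chemokine list in 2 of 16. A match is a description of letters and not of binding. The list was fixed as genes of ISGF3 type, so its share above that of all genes describes the list and is no test of these hearts.

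The genes shown order the Dsg2-null libraries alike. Isg15 measured 6.86, 6.3, 3.74 and 5.81 in wild-type and 32.1, 20.2, 9.24 and 38.4 in Dsg2-null replicates 1 to 4 (difference 1.81, SE 0.37, limma adjusted p = 0.0102). Oas3 measured 0.229, 0.514, 0.251 and 0.739 against 7.68, 6.72, 2.48 and 10.2 (2.33). Oas1a measured 2.36, 1.27, 2.22 and 2.16 against 10.3, 8.08, 4.39 and 15.3 (1.72). In these 3 genes Dsg2-null replicate 3 is nearest to the wild-type range and replicate 4 is the highest. Ifit3, whose fragments may be shared with its near copy Ifit3b, measured 5.25, 4.52, 3.9 and 5.88 against 22.4, 16.5, 7.96 and 22.9 (1.56). Zbp1, a sensor of nucleic acids, had the largest difference of the list (2.46), at 0.534, 0.62, 1.07 and 1.84 against 13, 11.6, 3.7 and 15.3, followed by Mx1 (2.44), a GTPase that blocks virus replication, and Oas3. Rsad2 (viperin) and Ifi27 did not pass: Rsad2 measured 7.73, 8.68, 8.79 and 8.93 against 20.2, 9.37, 7.18 and 22.9, and Ifi27 22.8, 16.2, 19.7 and 17.4 against 16.6, 23.6, 18.7 and 13.9. Stat2, a subunit of ISGF3, rose (0.63), as did Irf7, a transcription factor that interferon induces (1.5). Left out in turn, single libraries gave 26 to 34 of 36, and the 3 other scalings 28 to 32.

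The list of interferon-gamma type GTPases and targets gave a less uniform picture. Of 17 tested GTPases and targets 9 rose (1 to 9 with 1 library left out, low without wild-type replicates 1, 2 and 3 and Dsg2-null replicates 1, 2 and 4) and 0 fell (median 0.71), and 3 of the 17 had no overlap. Without the filter on low values 1 rose. Igtp, an immunity-related GTPase induced by interferon-gamma, measured 19.9, 36.6, 42.2 and 65.5 in wild-type and 47.3, 79.5, 48.7 and 48.3 in Dsg2-null replicates 1 to 4 and did not pass (difference 0.52, limma adjusted p = 0.287). Its highest wild-type value is above 3 of the Dsg2-null values. Iigp1, of the same family, measured 6.26, 20.6, 21.8 and 36.3 against 24.8, 56.8, 37.8 and 20.8 (0.81, limma adjusted p = 0.269). Irf8, a transcription factor of myeloid cells, rose without overlap, at 3.66, 3.71, 4.43 and 6.08 against 10.8, 13.9, 9.43 and 15.1. The ISRE core stood in 11 of the 16 listed genes with a window (68.8%). Transcripts of the interferons were scarce. Ifnb1 and Ifna4 were listed at 0 in all 8 libraries, and Ifng at 0 in the wild-type and at 0.0526, 0.197, 0.0907 and 0.287 in the Dsg2-null libraries. Receptors gave small differences: Ifnar1 0.30 and Ifngr1 -0.02 did not pass, and Ifngr2 had a difference of -0.31 (limma adjusted p = 0.0494). Sensors and their partners that myeloid cells carry rose, namely Tmem173 (STING, 1.40), Irf5 (1.67), and Ifi204 and Ifi205 (2.41 and 2.05), 2 members of one gene family. The adaptor of RNA sensing, Mavs, had a difference of -0.32 (limma adjusted p = 0.0469). Both calls, of Ifngr2 and Mavs, were lost in 6 of the 8 fits with 1 library left out (limma adjusted p of 0.0447 to 0.129 and 0.0126 to 0.118), and with the deposited values, equal sums, the code as covariate, no filter or no trend. Over the 53 tested genes of both interferon lists 38 rose and 0 fell (median 0.77). Dsg2-null replicate 3 was the lowest of its genotype in 37 of the 38, and replicate 4 the highest in 25. Macrophage sums also put replicate 3 lowest, at 524 against 797 in replicate 4, and the part of myeloid cells in the interferon genes' levels was not tested.

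**Figure D3:**
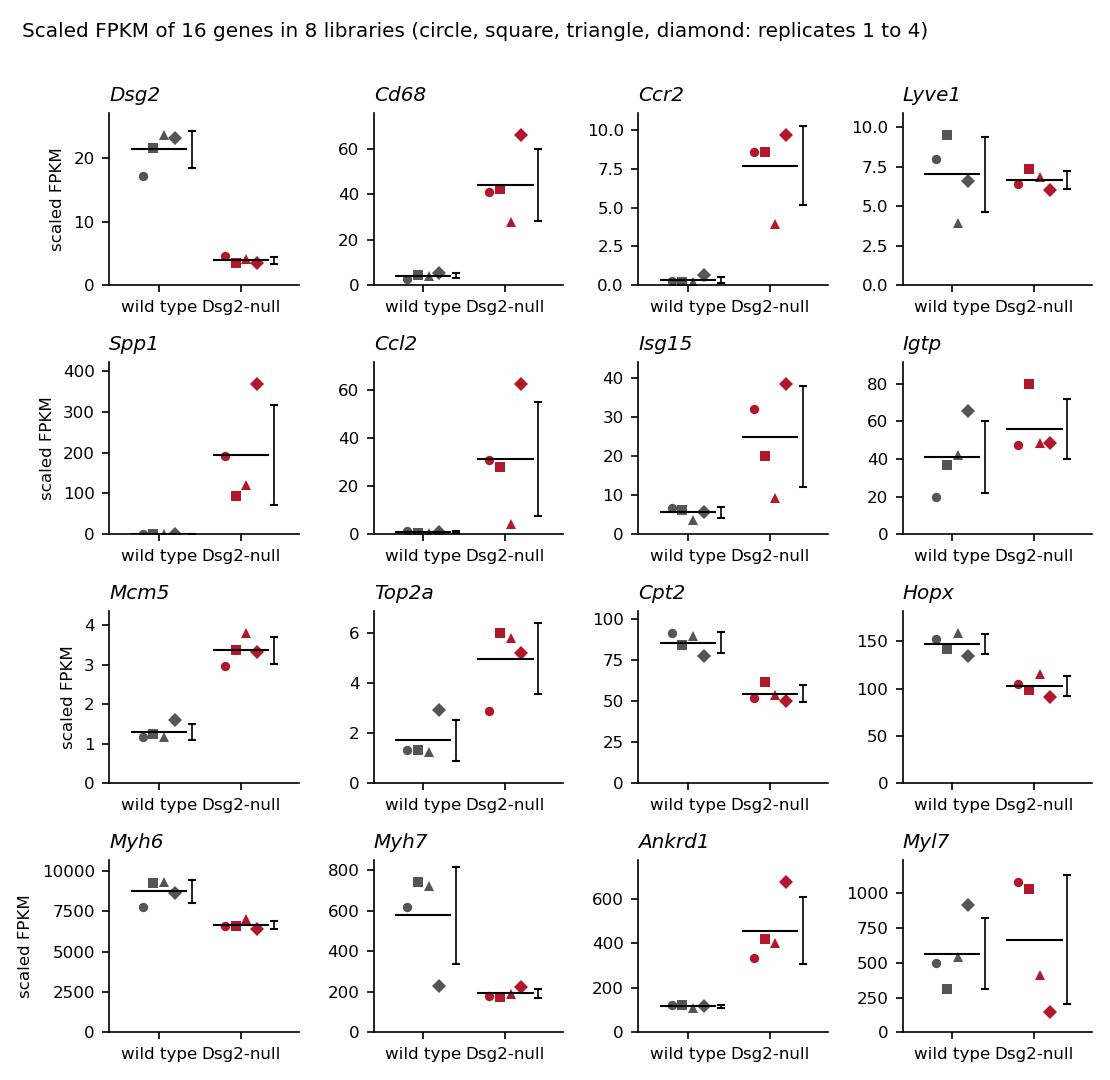
Scaled FPKM of 16 genes in the 4 wild-type (grey) and 4 Dsg2-null (red) libraries; marks are replicates 1 to 4 as circle, square, triangle and diamond, the line is the group mean and the bar beside it runs 1 SD to either side. Cd68, Ccr2, Spp1, Ccl2 and Ankrd1 separate the genotypes, Lyve1 and Igtp overlap, and Myl7 varies between libraries of both genotypes.

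Cell cycle genes were higher, at low levels. Transcripts of dividing cells were present in the wild-type hearts too. Of 21 tested genes of DNA replication 7 rose and 1 fell (0 to 1 with 1 library left out, low without wild-type replicates 1, 2 and 3 and Dsg2-null replicates 1, 2 and 3) (median 0.26), and the sums over all 32 genes were 72.4 to 77.8 and 91.1 to 105, without overlap. Of 14 tested genes of G2 and mitosis 5 rose (1 to 6 with 1 library left out, low without wild-type replicates 1, 2 and 3 and Dsg2-null replicates 2 and 3) and 0 fell (median 0.49), with sums over all 34 of 30.1 to 38.3 and 39.5 to 69.1. In this list 20 genes had means below 1 and were not tested. Replication genes carry E2F sites, bound by factors that the retinoblastoma protein restrains, and mitotic genes carry CHR elements and CCAAT boxes, bound by the DREAM complex and NF-Y. Promoters of Mcm5 and Mcm6, subunits of the replicative helicase, show the first kind, and those of Top2a (topoisomerase II alpha) and Mki67 (the proliferation antigen Ki-67) the second. Capitals mark E2F sites (TTTCCCGC or TTTGGCGC) in the Mcm genes, and CHR elements (TTTGAA) and CCAAT boxes (CCAAT) in the other pair, on either strand. Mcm5 is shown from chr8:75109329-75109398 on the plus strand, 111 to 180 bases before its start. Mcm6 is shown from chr1:128359729-128359831 on the minus strand, 24 to 126 bases before its start. Top2a is shown from chr11:99024191-99024432 on the minus strand, 2 to 243 bases before its start. Mki67 is shown from chr7:135716456-135716583 on the minus strand, 77 to 204 bases before its start.
Mcm5: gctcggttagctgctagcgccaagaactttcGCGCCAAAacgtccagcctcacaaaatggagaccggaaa
Mcm6: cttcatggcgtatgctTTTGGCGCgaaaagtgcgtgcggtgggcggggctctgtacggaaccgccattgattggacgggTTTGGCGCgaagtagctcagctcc
Top2a: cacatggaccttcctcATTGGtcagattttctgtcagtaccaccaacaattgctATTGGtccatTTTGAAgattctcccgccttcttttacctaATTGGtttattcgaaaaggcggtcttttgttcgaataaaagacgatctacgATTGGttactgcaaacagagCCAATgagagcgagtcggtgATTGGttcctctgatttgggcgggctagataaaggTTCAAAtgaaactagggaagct
Mki67: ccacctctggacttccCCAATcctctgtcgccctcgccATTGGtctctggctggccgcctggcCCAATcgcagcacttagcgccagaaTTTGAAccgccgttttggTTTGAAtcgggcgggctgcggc

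E2F sites stood in 9 of the 27 replication genes with a window (33.3%), against 1.80% of all genes and 3.32% of those tested. The CHR element stood in 22 of the 28 mitotic genes (78.6%), against 20.2% and 13.7%, and in 4 of the 27 replication genes (14.8%). CCAAT boxes were in 23 of the 28 (82.1%), against 41.1% and 42.4%. Both lists were fixed as genes of the cell cycle, so these shares describe the lists and are no test of these hearts.

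Of the 7 replication genes that rose, Dsg2-null replicate 4 was the highest of its genotype in 4 and replicate 3 the lowest in 4. Whether this order differs from that of the mitosis list was not tested. Mcm5 measured 1.18, 1.25, 1.17 and 1.59 in wild-type and 2.97, 3.37, 3.79 and 3.33 in Dsg2-null replicates 1 to 4 (difference 0.93, SE 0.11, limma adjusted p = 0.000884), and its groups are well apart. Mcm6 measured 2.52, 3.23, 2.89 and 3.7 against 5, 5.05, 4.22 and 5.59 (0.55). Cdt1, which licenses origins, and Uhrf1, which maintains DNA methylation, rose by 0.96 and 0.88. Top2a measured 1.34, 1.35, 1.27 and 2.95 against 2.91, 6, 5.82 and 5.23 (1.14, limma adjusted p = 0.00981), where Dsg2-null replicate 1 is just below wild-type replicate 4. Mki67 measured 1.42, 1.49, 0.964 and 1.96 against 2.29, 4.69, 4.43 and 1.96 (0.78, limma adjusted p = 0.0441), and Dsg2-null replicate 4 stands at the level of wild-type replicate 4. With 1 library left out its limma adjusted p was 0.0222 to 0.117, and above 0.05 without wild-type replicates 1, 2 or 3 or Dsg2-null replicates 2 or 3. In the mitosis list replicate 2 or 3 was the highest Dsg2-null library in 13 of 14 tested genes and replicate 4 the lowest in 8, whereas in the 105 immune genes that rose replicate 4 was the highest in 73. With quantile normalisation 2 mitotic genes rose. Of 14 G1 cyclins and growth genes 4 rose (2 to 3 with 1 library left out, low without wild-type replicates 1, 2 and 3 and Dsg2-null replicates 1 and 2), with Myc (1.45) and Ccnd3 (1.17) first, and of 17 cell-cycle inhibitors and p53 targets 4 rose (1 to 5 with 1 library left out, low without wild-type replicates 1, 3 and 4 and Dsg2-null replicate 2) and 2 fell (1 to 3 with 1 library left out, low without wild-type replicates 1, 2 and 3 and Dsg2-null replicates 1, 2 and 4). Ccnd3 measured 8.98, 9.78, 10.5 and 7.04 against 22.7, 27.3, 27.1 and 12.5, and Myc 2.17, 2.55, 1.59 and 1.92 against 5.37, 9.6, 4.42 and 11.8. Cdkn1c, the imprinted cyclin-dependent kinase inhibitor p57, fell, at 11.2, 15.7, 13.1 and 12.8 against 7.47, 8.57, 7.86 and 8.39 (-0.64). The p53 target Cdkn1a (p21) measured 41.8, 13.3, 15.7 and 18.5 against 27.9, 18.8, 14.7 and 24.4, with the highest value in wild type, and did not pass. Which cells held the proliferation transcripts was not tested: markers of both macrophages and activated fibroblasts moved in the same direction.

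Genes of oxidative metabolism were lower across the pathway. Over 144 tested genes 119 fell and 0 rose, with a median difference of -0.42 and quartiles of -0.48 and -0.37. The genes are those of fatty acids, the tricarboxylic acid cycle, complex I, complexes II to IV, ATP synthase, and branched-chain amino acids and ketones. The mitochondrially encoded list is not among them. Fatty acid uptake and oxidation, the main fuel path of the adult heart, gave 19 of 26 that fell (median -0.48). Cpt2, the inner-membrane carnitine transferase, measured 91.3, 84.1, 89.8 and 77.3 in wild-type and 52, 62.1, 54.1 and 50.1 in Dsg2-null replicates 1 to 4. Its mean went from 85.6 ± 6.33 to 54.6 ± 5.25 (SD, n = 4 each; difference -0.64, SE 0.09, limma adjusted p = 0.00181), and the groups do not overlap. Acadm, the medium-chain acyl-CoA dehydrogenase, measured 290.04, 304, 291 and 252 against 188, 169, 201 and 189.7 (-0.60). Fabp3, the fatty acid binding protein of heart muscle, measured 1857, 1843, 1687 and 1553 against 1121, 1140.02, 1403 and 1099 (-0.55). Both are likewise without overlap, with ratios of means of 0.657 and 0.686. Among the 7 that did not pass were Cpt1a, the liver form of the outer-membrane transferase (0.08), Ucp3 (-0.22) and Pdk4. Pdk4, the kinase that closes pyruvate entry in fasting, measured 278, 262, 202 and 165 against 210.2, 283, 233 and 175, and its groups overlap fully (0.00).

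The tricarboxylic acid cycle and the respiratory chain were lower as well. Of the cycle and pyruvate entry 19 of 22 fell (median -0.43). Ogdhl, a tissue-restricted form of the oxoglutarate dehydrogenase, fell most, at 47.8, 50.3, 47.9 and 26.8 against 22.7, 14.6, 17.6 and 21.5 (-1.11, SE 0.21, limma adjusted p = 0.00655), with wild-type replicate 4 nearest to the Dsg2-null values. The common form Ogdh measured 509, 531, 504 and 428 against 328, 339, 381 and 346 (-0.50). Complex I, which passes electrons from NADH to ubiquinone, had 28 of 33 fall, and its differences spanned only -0.54 to -0.28. Its subunit Ndufa10 measured 214, 238, 227 and 208 against 144, 161, 149 and 153. Complexes II to IV gave 22 of 27 and ATP synthase with the nucleotide carriers 14 of 17 (9 to 14 with 1 library left out, low without wild-type replicate 3). In pairs of isoforms picked after their values were seen, the muscle form fell and the general form did not pass: Cox6a2 -0.53 and Cox6a1 -0.06, and Cox8b -0.51 and Cox8a -0.23. The nucleotide carriers split alike, with Slc25a4, the heart and muscle form, at -0.44 and Slc25a5, the form of dividing cells, at 0.00. The differences between isoforms were not tested. Mitochondrially encoded proteins, whose transcripts come from the organelle's own genome, fell in 9 of 10 (2 to 9 with 1 library left out, low without wild-type replicates 1, 2 and 3 and Dsg2-null replicates 1 and 2) (median -0.42), and 0 passed the test without the filter on low values. The subunit mt-Co1 measured 23830.5, 25512, 26049 and 21963 against 16578, 16567, 19505 and 19727. Nuclear copies of mitochondrial genes can share their fragments. Oxidation of branched-chain amino acids and ketones gave 17 of 19 (8 to 16 with 1 library left out, low without wild-type replicates 1 and 3 and Dsg2-null replicate 2) (median -0.41), with the dehydrogenases Ivd (-0.65) and Bckdha (-0.60) lowest.

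These differences are small and rest on the scaling for part of their calls. Under the deposited values, equal library sums and quantile normalisation 0 genes of 7 lists rose, the mitochondrially encoded list included. The list medians stayed negative, between -0.15 and -0.40. The numbers that fell dropped to 3 of 17 for ATP synthase, 0 of 10 for mitochondrially encoded proteins, 12 of 26 for fatty acid oxidation and 13 of 27 for complexes II to IV with quantile normalisation, and to 8 of 19 for branched-chain amino acids and ketones with equal sums. Cardiomyocyte markers had a median of -0.36, and whether the metabolic lists fell further than these was not tested.

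**Figure D4:**
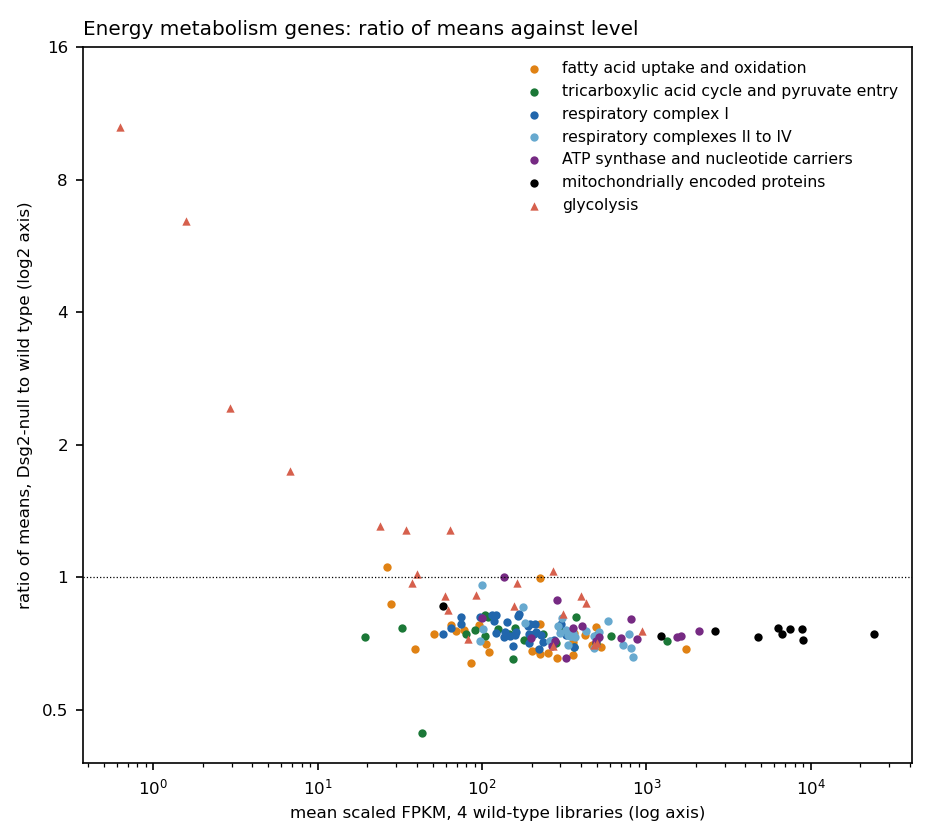
Each mark is a tested gene of energy metabolism, with its mean scaled FPKM in the 4 wild-type libraries on the x axis (log scale) and the ratio of Dsg2-null to wild-type means on the y axis (log2 scale); circles are oxidative lists and triangles glycolysis. Most circles lie in a narrow band below a ratio of 1 over the whole range of levels, and the triangles with the highest ratios are low-level genes such as Hk3 and Slc16a3.

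Glycolysis showed no common direction. Of 23 genes 3 rose and 6 fell (median -0.13); with the deposited values 7 rose and 4 fell. The genes that fell were Slc2a4 (the insulin-responsive carrier GLUT4, -0.46), Pfkm (-0.51), Eno3 (-0.50), Ldhb (-0.50), Pgam2 (-0.28) and Aldoa (-0.41). Pgam2 and Aldoa lost the call with the deposited values, equal sums and quantile normalisation, and Eno3 with quantile normalisation. The genes that rose were Eno1, Hk3 and Slc16a3. Eno1, the general enolase, had a difference of 0.34, and its call was lost in 7 fits with 1 library left out. Hk3, the hexokinase of myeloid cells, measured 0.639, 0.376, 0.452 and 1.05 against 7.15, 7.93, 3.16 and 8.25. Slc16a3, a lactate exporter, measured 1.88, 1.56, 1.48 and 1.42 against 8.89, 7.37, 4.43 and 20.2. Slc2a1 (GLUT1), the carrier of the fetal heart, had higher values in every Dsg2-null library, 4.56, 6.99, 3.91 and 12.8 against 3.47, 3.42, 2.3 and 2.47, and missed the test (difference 0.93, limma adjusted p = 0.0508). Of 12 genes of creatine metabolism and mitochondrial regulation 5 fell (3 to 7 with 1 library left out, low without wild-type replicates 2 and 3 and Dsg2-null replicates 2 and 4) and 0 rose. The regulators that fell were Perm1 (-0.71), Ppargc1b (-0.40) and Esrra (-0.33). With 1 library left out the call of Esrra was lost in 7 fits and that of Ppargc1b in 5. Esrra also lost it with the deposited values, equal sums, quantile normalisation, the code as covariate, no filter or no trend. Ppargc1b also lost it with the deposited values, equal sums or no filter. Ppargc1a, the coactivator PGC-1 alpha, measured 76.3, 55.8, 39 and 34.1 against 21.9, 24, 59.6 and 21.1 and did not pass, Dsg2-null replicate 3 lying inside the wild-type range. The creatine kinases Ckm and Ckmt2, which carry high-energy phosphate in muscle, fell by 0.60 and 0.48. A small group of amino acid and one-carbon genes moved the other way: 6 of 16 rose and none fell, including Psat1 (0.81), Mthfd2 (0.83), Asns (0.82) and the stress cytokine Gdf15 (1.28), while the stress factors Atf4, Atf5 and Ddit3 did not pass (0.44, -0.04 and -0.07).

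Heart muscle genes were lower too. Of 12 cardiomyocyte markers 8 fell (0 to 9 with 1 library left out, low without wild-type replicates 1, 2, 3 and 4 and Dsg2-null replicates 1, 2 and 4) and 0 rose, and their sums of 26016 to 30559 and 20242 to 24562 do not overlap. Without the filter on low values 0 of them passed the test. Myh6 measured 7734, 9269, 9271 and 8628 in wild-type and 6578, 6585, 7033 and 6381 in Dsg2-null replicates 1 to 4 (difference -0.39, SE 0.10, limma adjusted p = 0.0234). With 1 library left out its limma adjusted p was 0.0260 to 0.0771, and above 0.05 without wild-type replicates 2 or 3 or Dsg2-null replicates 1, 2 or 4. The call of Myh6 was also lost with the deposited values, equal sums, quantile normalisation or no filter. Myl2, the ventricular regulatory light chain, measured 3995, 3729.9, 3679 and 2958 against 1985, 1663, 2795 and 2768 (-0.67). In Myh6 and Myl2 all Dsg2-null libraries are below all wild-type ones. The call of Myl2 was lost in 5 of the 8 fits with 1 library left out, and with quantile normalisation or no filter. Actc1, the cardiac actin, measured 4791, 5504, 4397 and 3833 against 3298, 3865, 4662 and 4999, and the groups overlap (-0.15, limma adjusted p = 0.573). Of 20 adult sarcomere genes 11 fell (4 to 14 with 1 library left out, low without wild-type replicates 2 and 3 and Dsg2-null replicates 1 and 2) (median -0.37), among them Tcap (-0.61), Myoz2 (-0.50) and the giant protein gene Ttn (-0.34), and Tnnc1 had a difference of 0.00. The call of Ttn was lost in 7 of the 8 fits with 1 library left out. It was also lost with the deposited values, equal sums, quantile normalisation, the code as covariate, no filter or no trend. The cardiomyocyte count was 2, 1 and 2 and the sarcomere count 5, 1 and 5 with the deposited values, quantile normalisation and equal sums. All medians of both lists under these scalings were negative.

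Fetal sarcomere genes did not rise as a group. The fetal and smooth-muscle list had 1 of 13 rise (0 to 2 with 1 library left out, low without wild-type replicates 2, 3 and 4 and Dsg2-null replicates 2, 3 and 4) (Tpm4, 0.46; not called with the code as covariate) and 1 fall. The one that fell was Myh7, the beta myosin heavy chain of the fetal ventricle, at 620.3, 739.7, 723 and 229 in wild-type and 181, 177, 191 and 224 in Dsg2-null replicates 1 to 4 (difference -1.44, SE 0.33, limma adjusted p = 0.0158). Wild-type replicate 4 stands near the Dsg2-null libraries, far below the other 3 of its genotype. Acta1, the skeletal actin that stressed heart muscle re-expresses, measured 47.7, 58.4, 17.2 and 21.8 against 27.3, 94.6, 70.9 and 159.9 and did not pass (1.18, limma adjusted p = 0.158). Atrial genes varied within genotypes: Myl7, the atrial light chain, measured 498, 309, 538 and 916 against 1074, 1030.03, 411 and 146, and Sln (sarcolipin) 37.9, 18.6, 34.9 and 59.1 against 60.1, 60.6, 26.5 and 8.5. Myl7, Myl4 and Sln were high in Dsg2-null replicates 1 and 2 and in wild-type replicate 4 and lowest in Dsg2-null replicate 4. The part of atrial tissue in each sample was not tested, and no gene of the 6 atrial markers passed.

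Calcium handling and ion channel genes were lower in part. Of 14 tested calcium genes 8 fell (3 to 7 with 1 library left out, low without wild-type replicates 1, 3 and 4 and Dsg2-null replicates 1 and 2) and 0 rose (median -0.36). Atp2a2, the calcium pump SERCA2 of the sarcoplasmic reticulum, measured 3135, 3314, 3458 and 3002 against 2295, 2185, 2395 and 2395 (-0.48, SE 0.08, limma adjusted p = 0.00536). Hrc, a calcium-binding protein of the same store, measured 239, 257, 258 and 228 against 168, 156, 165 and 164 (-0.59). Neither overlaps between the genotypes. The exchanger Slc8a1 went the other way in value, at 52.1, 48.2, 45.3 and 51.7 against 45.7, 46.6, 59 and 90.3, and did not pass. With the other scalings 3 or 4 calcium genes fell. Of 22 channel and connexin genes 7 fell and 1 rose (median -0.29). Kcnip2, the auxiliary subunit KChIP2 of the fast transient outward current, had the largest fall of the list and measured 49.7, 54.7, 53.3 and 48 against 26.1, 31.1, 34.7 and 27.6 (-0.77, limma adjusted p = 0.00129), and Kcnd2, a pore subunit of the same current, 8.16, 8.48, 9.07 and 6.51 against 5.27, 4.33, 5.48 and 4.87 (-0.59). Kcnj11 (-0.71), Hcn2 (-0.56), Kcnj2 (-0.51) and Kcnk3 (-0.46) fell as well. Kcnj11 and Kcnj2 each lost the call in 4 of the 8 fits with 1 library left out. Both also lost it with the deposited values, equal sums or no filter. With the deposited values and with equal sums 5 of the 22 channel and connexin genes fell. Gja1 (connexin 43) measured 57.7 to 187 and 53.1 to 161.

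Partners of desmoglein-2 in the desmosome gave small differences. Desmoplakin (Dsp), which links the junction to intermediate filaments, fell, at 174, 194, 206 and 188 against 142, 124, 157 and 149 (-0.41, limma adjusted p = 0.0142). Plakophilin-2 (Pkp2) measured 39.4, 42.2, 44.2 and 39.4 against 35.7, 40.9, 44.7 and 53.1, plakoglobin (Jup) 86.2, 93.2, 105 and 93.3 against 82.3, 80, 82.5 and 86.3, and desmocollin-2 (Dsc2) 12.4, 11.8, 15.2 and 14.5 against 10.7, 10.5, 12.3 and 7.88. These 3 overlap between the genotypes and did not pass (0.06, -0.18 and -0.36). Over the 19 disc genes 2 rose (0 to 2 with 1 library left out, low without wild-type replicates 1, 2, 3 and 4 and Dsg2-null replicates 1, 2 and 3) and 2 fell. Over all tested genes 10.7% rose and 7.7% fell, and the disc counts are near these shares. Beside Dsp the alpha-T-catenin gene Ctnna3 fell (-0.66), and Xirp2 and Tmem43 rose (0.70 and 0.29). The call of Xirp2 was lost in 5 of the 8 fits with 1 library left out and with no filter. That of Tmem43 was lost in 6 of them and with quantile normalisation. Of 14 cardiac transcription factors 5 fell (1 to 5 with 1 library left out, low without wild-type replicates 1, 2 and 3 and Dsg2-null replicates 1 and 2), with Hopx, a homeodomain protein, lowest at 152, 142, 158 and 134 against 105, 98.9, 115 and 91.5 (-0.51). With the deposited values and with equal sums 1 of them fell.

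Stress genes of heart muscle were higher. Of 19 tested 8 rose (5 to 10 with 1 library left out, low without wild-type replicate 3 and Dsg2-null replicate 2) and 0 fell (median 0.76). Ankrd1, a stretch-responsive protein of the sarcomere, measured 122, 122, 108 and 119 in wild-type and 332, 421, 399.7 and 673 in Dsg2-null replicates 1 to 4. It had means of 118 ± 6.82 and 456 ± 149 (SD, n = 4 each; difference 1.90, SE 0.18, limma adjusted p = 0.000532), and its groups lie far apart. Nppb, the natriuretic peptide BNP, measured 43.3, 63.3, 15.3 and 51.7 against 88, 172, 165 and 185 (1.90). Nppa (ANP) measured 1259, 1011, 1084 and 2108 against 2441, 3039, 1450.4 and 777, overlaps and did not pass (0.38); it is also an atrial gene and its order of libraries is close to that of Myl7. Hmox1, the haem oxygenase that macrophages and stressed muscle express, measured 4.87, 5.12, 4.15 and 5.39 against 37.7, 32.4, 22.4 and 83.9 (2.77). Mt2, a metallothionein, and Socs3, a feedback inhibitor of interleukin-6 family receptors, rose by 2.91 and 2.15 with wide spread: Mt2 measured 21.1, 114, 27.6 and 128 in the Dsg2-null libraries. Genes of cell death rose in 10 of 17 (6 to 9 with 1 library left out, low without wild-type replicate 1) (median 0.55) and none fell, including Casp8 (1.09), Ripk3 (1.02), Mlkl (0.94) and Bcl2a1b (1.28), several of which myeloid cells express.

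Matrix proteases and some secreted matrix proteins were higher, and the main fibrillar collagens did not pass the test. Of 17 fibrillar collagen and assembly genes 5 rose (3 to 6 with 1 library left out, low without wild-type replicate 3 and Dsg2-null replicate 2) and 0 fell. Col1a1 measured 271, 253, 179 and 233 against 292, 416, 289 and 219.9 (0.36, limma adjusted p = 0.229), and Col3a1 764, 659.7, 536 and 717 against 773, 1096, 800.3 and 588. Both overlap, with Dsg2-null replicate 2 the highest. Col8a1, a short-chain collagen of remodelling tissue, rose, at 5.32, 5.42, 4.53 and 4.78 against 6.91, 11.2, 12.9 and 11.5 (0.92). Activated fibroblast markers had a median of 0.58, with 9 of 15 higher as given among the cell markers. Timp1, an inhibitor of metalloproteinases, measured 2.47, 2.43, 1.48 and 1.57 against 46.4, 59.7, 22.6 and 112 (4.16, SE 0.39, limma adjusted p = 0.000476). Tnc (tenascin-C), a matrix protein of wounds, measured 2.63, 2.07, 1.73 and 2.58 against 21.2, 32.1, 13.8 and 46.1 (3.05). Neither overlaps, and both put Dsg2-null replicate 4 highest. Postn (periostin) and Acta2, which define myofibroblasts, did not pass: Postn measured 52.3, 40.7, 32.4 and 40.6 against 47, 84.9, 70.4 and 47.3, and Acta2 382, 344, 179 and 139 against 129, 165, 267 and 238. Matrix proteases and inhibitors rose in 12 of 18 and fell in 2 (1 to 2 with 1 library left out, low without wild-type replicates 1, 2 and 3), with Adam8 (2.83) and Plau (2.05) up and Timp4, the heart-enriched inhibitor (-0.92), and Mmp2 (-0.43) down. Basement membrane genes had a median of -0.07; 1 of 15 fell (0 to 2 with 1 library left out, low without wild-type replicates 2 and 3 and Dsg2-null replicate 2) (Lamb2, a laminin chain), while with the 3 other scalings 1 to 3 rose, none fell and the median was 0.02 to 0.06. Of the TGF-beta and integrin genes 8 of 17 rose and 1 fell (0 to 1 with 1 library left out, low without wild-type replicates 1, 2 and 3), led by Cd44, the hyaluronan receptor (1.66), with Tgfb1 at 0.84, and matricellular proteins rose in 9 of 20 (Fn1, fibronectin, 1.41; Thbs1 1.99). Genes of cytosolic ribosomal proteins had differences above 0 in all 29 tested, from 0.04 to 0.73. Of these 5 rose (3 to 6 with 1 library left out, low without wild-type replicate 3 and Dsg2-null replicate 2), and 20 to 22 with the other scalings.

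Outside the lists the largest rises without overlap between genotypes included myeloid, acute-phase and muscle genes. Slfn4, an interferon-inducible gene of myeloid cells, measured 0, 0.0331, 0.0523 and 0.029 in wild-type and 31.8, 12.2, 1.53 and 26.7 in Dsg2-null replicates 1 to 4. Mpeg1 (perforin-2), a pore-forming protein of macrophages, measured 2.81, 2.87, 3.91 and 5.1 against 46.6, 53.9, 34.6 and 72.3 (3.48, SE 0.22, limma adjusted p = 6.88e-05). Arg1, the arginase of macrophages in repair, measured 0, 0, 0.155 and 0.0777 against 16.8, 6.11, 1.25 and 23.3. In Slfn4 and Arg1 replicate 3 is again far below the other Dsg2-null libraries. Sprr1a, a small proline-rich protein that injured heart muscle makes, was listed at 0 in 3 wild-type libraries and at 0.167 in replicate 1, and measured 11.1, 8.37, 8.59 and 14.7 in Dsg2-null replicates. Serpina3n, an acute-phase protease inhibitor, measured 1.45, 1.11, 0.75 and 1.02 against 15.6, 17.4, 13 and 31.4 (3.23). Nmrk2, a muscle kinase that makes NAD from nicotinamide riboside, measured 2.24, 2.34, 0.598 and 1.4 against 17.9, 15.2, 16.5 and 36.5 (3.06). Sprr1a and Nmrk2 are lowest in Dsg2-null replicate 2 and Serpina3n in replicate 3, and all 3 are highest in replicate 4. Apoc2, an apolipoprotein, was listed at 0 in all wild-type libraries and measured 9.97, 6.57, 3.96 and 10.5 in the Dsg2-null ones. The other 5 of the 12 were F10, Ptafr, Saa3, Fgr and Slamf7, with differences of 3, 2.75, 2.61, 2.58 and 2.54. The largest falls were smaller. Asb15 and Asb14, muscle genes of a ubiquitin ligase adaptor family, measured 12.3, 14.4, 16.1 and 12.2 against 4.54, 2.98, 8.11 and 7.4, and 24.7, 24.3, 28.8 and 22.2 against 12, 10, 13.7 and 13.5 (-1.19 and -0.97). Strit1, which encodes DWORF, a small activator of the SERCA pump, measured 10.5, 7.85, 5.89 and 5.58 against 4.9, 2.78, 1.8 and 4 (-0.97). Also among them were Lrtm1, Tbx3os1 (antisense to Tbx3, with which it may share fragments), Efnb3, Lrrc24, Pex7, Cd59b, Chpt1 and Shld1, at -1.03 to -0.87.

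The genotype difference was also compared between the OA (male) and OB (female) libraries, with 2 of each genotype. For 0 of 13384 genes (0.0%) did the interaction pass limma at an adjusted p below 0.05; 1160 had an unadjusted p below 0.05 and the smallest adjusted p was 0.133. With 2 libraries in each cell this does not show that the difference is alike in both codes.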

How the data were processed

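RNA-seq of mouse hearts at 2 weeks of age was analysed from the deposited table of FPKM values. Per the submitters' processing notes, the authors made the FPKM values with StringTie 1.3.4 on genome build GRCm38. The aligner and the annotation are not given in the sources used here. The labels name both polyA RNA and a stranded kit that depletes ribosomal RNA. The table has 54079 rows. The 103 rows that repeat a gene symbol were left out, which kept 53976. Each library was divided by a median-of-ratios size factor over the 13333 genes above 0 in all 8 libraries with a mean of at least 1. The main fit was limma 3.58.1 in R 4.3.3 on log2(scaled FPKM + 1), for the 13384 genes with a mean of at least 1, with an intensity trend, empirical Bayes and Benjamini-Hochberg adjustment at 0.05. A log2 difference on this scale understates the change of low genes. Single library values were compared by exact permutation of the 8 labels (70 relabelings, two-sided). Python 3.11.15, numpy 2.4.6 and pandas 2.3.3 made the summaries.

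Alternatives were the deposited values without scaling, equal FPKM sums, quantile normalisation, a pseudocount of 0.1, a mean of at least 5, no filter, the code as covariate, no trend, and leaving out each library. On simulated data with 200 changed genes among 13384, 82% were recovered, all with the right sign, and 7.87% of calls were wrong. The changed genes were shifted by a log2 difference of 1, had a mean log2 value above 1, and carried independent normal noise. Recovery of smaller differences, such as those of the metabolic and sarcomere lists, was not simulated. Depth was estimated from the spacing of low FPKM values, of which 49.9% to 54.8% lay near whole multiples against 20% by chance, so it is approximate and was used in no test. The spacing can be that of fragments or of single mates of a pair, so an estimate can be off by a whole factor. Whether this holds for the low estimate of Dsg2-null replicate 1 was not tested. The 62 gene lists hold 1029 entries, of which 1007 are in the table. Genes and lists were chosen with earlier results of these data known. Named from each list are the 4 tested genes with the largest change past the test and the list's defining genes, from outside the lists the 12 highest and 12 lowest without overlap, leaving out predicted, Rik and small RNA genes, and Dsg2 with its desmosome partners. Further members are named by values seen, and some genes are not reported here. Promoter sequences are RefSeq windows of GRCm38.p6 matched by symbol. Value columns left out for want of a sample: 0.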

Additional observations from a re-analysis of the deposited data

Results flagged for a closer look

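Within groups of 4 libraries, 48 of 774 sets of values screened had a highest or lowest library that stood apart, with a gap to the next library, as a share of the whole range, above the 95% critical value of Dixon's test for 4 values. Chance gives about 5% of groups, so these are values to look at and not a pattern. Each is given against the range of the other 3 libraries of its genotype, in scaled FPKM unless stated. The T cell sum was 4.47 in wild-type replicate 4, against 1.57 to 2.01. The NK cell sum was 2.55 in wild-type replicate 4, against 0.177 to 0.37. The mast cell sum was 6.85 in Dsg2-null replicate 3, against 10.3 to 10.4. The lymphatic endothelium sum was 43 in Dsg2-null replicate 4, against 35.6 to 36.7. The cell-cycle inhibitors and p53 targets sum was 282 in Dsg2-null replicate 4, against 256 to 260.1. The ion channels sum was 435 in Dsg2-null replicate 2, against 534 to 547. The row of Gm23935 took 12% of the FPKM sum in Dsg2-null replicate 4, against 5.1% to 5.43%.

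Among genes, the library apart was wild-type replicate 1 for Sprr1a (0.167 against 0 in all 3) and Stat2 (11.6 against 10.1 to 10.3). In wild-type replicate 2 it was S100a8 (2.49 against 0 to 0.209), Ccl4 (0.198 against 0 in all 3), Tmem43 (12.8 against 10.9 to 11.2), Tbx3os1 (0.93 against 2.34 to 2.37), Cry1 (5.78 against 3.7 to 4.03), Lgmn (37.4 against 31.8 to 32.4) and Mpo (0.258 against 0 in all 3) that stood apart. For wild-type replicate 3 these were Tyrobp (6.84 against 9.96 to 10.6), Pdpn (1.73 against 2.9 to 3.04), Atf4 (22.5 against 32.9 to 34.8) and Gja1 (187 against 57.7 to 70.2). Values apart in wild-type replicate 4 were found for Nkg7 (0.931 against 0 to 0.151), Cxcl10 (2.04 against 0.301 to 0.484), Cfb (2.61 against 1.38 to 1.47), Cd300lf (0.189 against 0 to 0.0269), Cdt1 (1.52 against 0.701 to 0.782), Tk1 (1.43 against 0.846 to 0.855), Top2a (2.95 against 1.27 to 1.35), Ogdhl (26.8 against 47.8 to 50.3), Myocd (31.4 against 36.4 to 37.4), Saa3 (0.0173 against 0 in all 3) and Lrtm1 (19.5 against 34.5 to 37.4). With Dsg2-null replicate 1 the genes were Tcap (287 against 224 to 231), Lrrc24 (11 against 4.83 to 5.51) and Il10 (0.096 against 0 in all 3). In the case of Dsg2-null replicate 2 they were H2-DMb1 (5.63 against 3.99 to 4.19), Nlrc5 (16.4 against 10.4 to 11.1), Efnb3 (4.64 against 6.95 to 7.42) and Igtp (79.5 against 47.3 to 48.7). Also, Dsg2-null replicate 3 stood apart in Ctnna3 (27.3 against 17.6 to 18.9), Fabp3 (1403 against 1099 to 1140.02), Mavs (22.3 against 17.5 to 18.2), Ppargc1a (59.6 against 21.1 to 24) and Tbx3 (7.72 against 5.73 to 6.04). Genes with Dsg2-null replicate 4 apart were Uhrf1 (3.37 against 2.5 to 2.64), Xirp2 (115 against 58.6 to 67.6), Nmrk2 (36.5 against 15.2 to 17.9), H2-K1 (205 against 136 to 148) and Lamp1 (158 against 123 in the other 3).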

How the results depend on the processing

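Genes called between the genotypes numbered 2458 and 1418 to 2691 with 1 library left out, with 1418 without wild-type replicate 3, 1421 without Dsg2-null replicate 2, 1614 without wild-type replicate 1 and 1631 without wild-type replicate 2. Genes that rose numbered 1427, with 2351 on the deposited values, 2268 with equal FPKM sums, 866 with a mean of at least 5 and 904 to 1560 with 1 library left out (904 without Dsg2-null replicate 2, 924 without wild-type replicate 3). Genes that fell numbered 1031, with 477 on the deposited values, 452 with equal sums and 494 to 1131 with 1 library left out (494, 581 and 595 without wild-type replicates 3, 2 and 1, and 517 without Dsg2-null replicate 2). The median difference over all genes was 0.10 on the deposited values, 0.09 with equal sums and -0.07 with quantile normalisation. A fit with fewer libraries has fewer degrees of freedom, and a higher minimum tests fewer genes. For the other changes the cause was not tested.

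Dsg2 kept its direction and its call under each of the 16 alternatives, from -2.27 to -2.06 on the scale with a pseudocount of 1 and at -2.40 with 0.1. The genotype by code interaction called 0 genes under each alternative run. The difference in the mitochondrial share of the FPKM sum, -2.39 percentage points, was -2.75 to -1.91 with 1 library left out. Its exact permutation p was 0.0571 without wild-type replicate 1 (-2.51), 2 (-2.48) or 3 (-1.91). Among 303 named genes none changed sign while called. The call was lost for 27 on the deposited values, 28 with equal sums, 35 with quantile normalisation, 66 without a filter, 16 without the trend, 17 with the code as covariate, 2 with a pseudocount of 0.1, and 11 (without Dsg2-null replicate 3) to 60 (without Dsg2-null replicate 2, or wild-type replicate 3) with 1 library left out. Named genes whose call was lost in 5 to 7 of the 8 fits with 1 library left out were Abca8a, Ackr3, Aldoa, Asns, Cd74, Cx3cr1, Eno1, Esrra, Gsn, Ifngr2, Mavs, Mbp, Mki67, Mrc1, Myh6, Myl2, Nr1d1, Pdpn, Pgam2, Ppargc1b, S100a8, Tie1, Tmem43, Tpm4, Ttn, Xirp2 and mt-Co1. Without a filter on low values fewer list members passed. Rises went from 9 to 1 for interferon-gamma targets, 6 to 2 for MHC class II, 7 to 3 for MHC class I, 12 to 7 for chemokines, 9 to 5 for cytokines and for activated fibroblasts, 8 to 5 for cardiac stress genes, 5 to 3 for neutrophils and for fibrillar collagens, 4 to 2 for G1 cyclins and 4 to 1 for cell-cycle inhibitors. Falls went from 8 to 0 for cardiomyocyte markers, 9 to 0 for mitochondrially encoded genes, 14 to 7 for ATP synthase, 11 to 5 for adult sarcomere, 8 to 3 for calcium handling, 5 to 3 for cardiac transcription factors and for mitochondrial regulators, and 3 to 1 for resting fibroblasts. No paired analysis was possible because the labels give the libraries no shared replicate number, litter or animal across the genotypes beyond the 2 letter codes. Low genes are limited by depth: by the estimate for Dsg2-null replicate 1, a value of 0.1 in a transcript of 1 kilobase is about 1 fragment.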

Other observations

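Genes of the circadian clock, chosen after their values were seen, moved in part. The clock is a loop in which CLOCK and BMAL1 (Arntl) switch on the Per and Cry repressors, nuclear receptors of the REV-ERB and ROR families, and the output factors Dbp, Tef and Hlf. Of 18 such genes, 7 fell in Dsg2-null hearts at 2 weeks, with no overlap between the genotypes in any of them, against a background of 7.7% of all tested genes that fell. The set was chosen on these values, so its count beside that background is no test of the clock. The part of the time of day of collection was not tested. Dbp measured 16.1, 20.6, 22.5 and 16.7 in wild-type and 11.3, 7.01, 13.2 and 9.2 in Dsg2-null replicates 1 to 4 (difference -0.86, limma adjusted p = 0.0109). Cry2 measured 9.73, 9.56, 9.48 and 8.69 against 6.87, 6.84, 7.27 and 5.76 (difference -0.43, limma adjusted p = 0.00874). The others were Hlf (-0.71), Per3 (-0.67), Tef (-0.67), Nr1d1 (-0.62) and Rora (-0.37). The activators did not pass: Clock had a difference of -0.09 and Arntl one of 0.28, and neither did Per1 (0.02), Per2 (-0.63), Cry1 (0.17), Nr1d2 (-0.46), Npas2 (0.19), Ciart (-0.26), Bhlhe40 (0.29), Bhlhe41 (0.06) or Nfil3 (0.33). With 1 library left out at a time, Dbp, Hlf and Cry2 passed in all 8 fits, and Tef, Per3, Nr1d1 and Rora lost the call in some of them. Tef, Per3, Nr1d1 and Rora also lost it with the deposited values and with equal sums, so the count of falls depends on the scaling. Without a filter Tef, Per3 and Nr1d1 lost it, and with the code as covariate Nr1d1 did.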
